A study of Mus musculus with 48 samples.

Results

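Glycam1, Chst4, Madcam1, Cxcl13, Ccl19 and Ccl21a are genes of the high endothelial venules and of the reticular stroma of lymph nodes, and they were taken from the count table of subcutaneous white adipose tissue (sWAT) by their gene names. The 6 names matched 8 of the 54532 rows, because Ccl19 and Ccl21a were each listed on chromosome 4 and again on the unplaced scaffold JH584294.1. All 8 rows were annotated as protein coding, and 7 of them passed the filter on low counts. The scaffold row of Ccl19, with 54 reads over all libraries, did not pass and was not tested.

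RNA-seq was performed on the inguinal fat of mice of the strain labelled C57BL/6, aged 8 months. The methods give the substrain C57BL/6J, and the mice as male littermates housed in groups. Ad-lib mice had food at all times, and TAN (twice-a-night) mice were fed in a pair of windows of the night. Each diet was sampled at 8AM, 12PM, 4PM, 8PM, 12AM and 4AM with 4 libraries per group, 48 libraries in 12 groups. The series text calls the material a stromal vascular fraction and the study describes whole sWAT. The adipocyte gene Adipoq was detected in all 48 libraries with a median of 2752 CPM (reads scaled to library size), so that adipocyte RNA was present.

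High endothelial venules are the vessels through which blood lymphocytes enter a lymph node. Their cells carry sulfated glycoproteins, among them the mucin GlyCAM-1, that are finished by the sulfotransferase CHST4 and bound by lymphocytes. MAdCAM-1 binds the integrin made of alpha 4 and beta 7 chains. The reticular stroma inside the node releases CXCL13, which draws CXCR5-bearing B cells into follicles, and CCL19 and CCL21, which draw CCR7-bearing T cells and dendritic cells. The inguinal fat pad of the mouse encloses a lymph node. In the study's isolation of stromal vascular cells the nodes were taken out, and for the frozen tissue used in bulk RNA-seq the methods do not state it.

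Total counts ranged from 15636378 to 29913310 per library. Set against the per-library FPKM values in the study's supplementary table, every one of the 48 columns matched best the library of the same diet and replicate 12 hours away, over 979 genes. The times given here are those of the sample labels and the count table. A diet comparison holds the same animals under either set of times, but the hour of the day attached to it is uncertain by 12 hours.

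Per kilobase of gene length, Cxcl13 had the highest level, with a median of 84.0 CPM per kilobase over the 48 libraries. The scaffold row of Ccl21a followed with 23.9 and Glycam1 with 14.8 CPM per kilobase. Cxcl13 was above the scaffold row of Ccl21a in 42 of 48 libraries, and Glycam1 was above Madcam1 in 43 of 48. Madcam1 and Chst4 were close, with medians of 0.995 and 0.949 CPM per kilobase, and Madcam1 was the higher in 24 libraries and the lower in 17. The chromosome 4 rows of Ccl21a and Ccl19 had the lowest medians among the tested rows, at 0.315 and 0.213 CPM per kilobase, and neither was regularly above the other (Ccl21a higher in 21 libraries and lower in 19).

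Glycam1 (chr15:103562759-103565081, minus strand, GRCm38) ranged from 0 to 117 CPM, with a median of 31.6 CPM and no reads in 4 libraries. Chst4 (chr8:110029153-110039740, minus strand) ranged from 0 to 6.50 CPM and had no reads in 11 libraries. Madcam1 (chr10:79664559-79668537, plus strand) ranged from 0 to 4.33 CPM and had no reads in 8 libraries. Of the 6 names, Cxcl13 (chr5:95956951-95961068, plus strand) was the one detected in all 48 libraries, between 6.14 and 285 CPM.

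Libraries without reads were found under both diets, 2 ad-lib and 2 TAN libraries for Glycam1 and 5 ad-lib and 6 TAN libraries for Chst4. In bulk RNA, fewer cells of a type and less RNA per cell cannot be told apart.

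**Figure D1:**
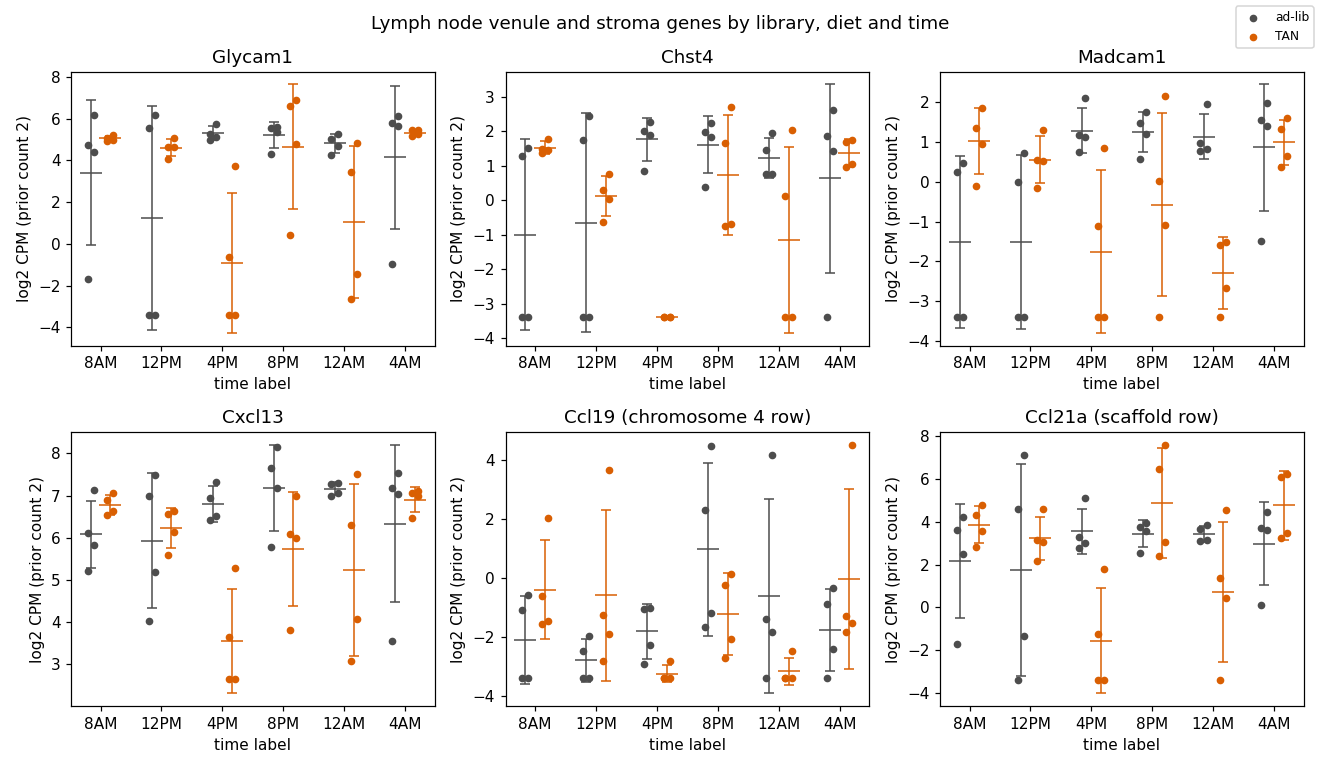
Level of 6 tested rows in each library (points, log2 CPM with a prior count of 2) by time label and diet, with the mean and SD of the 4 libraries of a group (bars). At 4PM all 4 TAN libraries had 0 Chst4 reads, and Cxcl13 was lower in every TAN library than in every ad-lib library. Some ad-lib libraries were also low, 1 each at 8AM and 4AM and 2 at 12PM by their B cell genes.

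The reads of Ccl19 and Ccl21a were spread over several rows of related genes, so that each row alone was an uncertain measure of its gene. The copies that were aligned were near-identical, and the scaffold rows were not aligned. The transcript of the pseudogene Ccl19-ps3 (chr4:42132559-42134171), 324 bases long, was identical to bases 217 to 540 of the Ccl19-201 transcript at 324 of 324 positions. A stretch of 30 bases from that region is shown, in exon 2 of each transcript, because a read from it cannot be assigned to either gene by its sequence:
Ccl19-201, chr4:42755229-42755258, minus strand: tgtctgtgacccagcgccccatccctggga
Ccl19-ps3-201, chr4:42133643-42133672, plus strand: tgtctgtgacccagcgccccatccctggga

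Over all libraries, 14210 reads were counted on the 4 rows of the Ccl19 group, of which the chromosome 4 row of Ccl19 held 13.8% and Ccl19-ps3 held 85.3%. Ccl19 had more than 20 reads in 6 libraries, with 461 in the ad-lib library 2 of 8PM, 459 in ad-lib 1 of 12AM, 442 in TAN 4 of 4AM, 217 in TAN 2 of 12PM, 114 in ad-lib 3 of 8PM and 74 in TAN 4 of 8AM. In these 6 libraries Ccl19 held 43.3% to 98.4% of the group's reads, and in no library outside them did it exceed 20 reads. The summed reads of the group did not set the 6 libraries apart, at 116 to 817 reads against 12 to 1833 in the other 32 libraries with high lymphocyte genes. The share of the group's reads on the Ccl19 row thus differed widely between libraries.

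Ccl21a-201 (chr4:42772860-42773993, minus strand) and Gm10591 (chr4:42612195-42612860, plus strand) differed at 2 of 402 aligned positions, T159A and C269T, counted from the 5′ end of Ccl21a-201 with the base of Ccl21a first. Ccl21b (chr4:42255767-42256432) carried the same pair of differences, and Gm21541 and Gm13304 were identical to Ccl21a-201 at 864 of 870 and 832 of 837 positions. The bases around the differences are shown, since these are the letters that tell a Ccl21a read from a Gm10591 read, with the differing base in capitals:
Ccl21a-201, bases 145 to 174, chr4:42773732-42773761, minus strand: agtgatggagggggTcaggactgctgcctt
Gm10591-201, bases 70 to 99, chr4:42612352-42612381, plus strand: agtgatggagggggAcaggactgctgcctt
Ccl21a-201, bases 255 to 284, across exons 2 and 3: ggcaatcctgttctCaccccggaagcactc
Gm10591-201, bases 180 to 209, across exons 2 and 3: ggcaatcctgttctTaccccggaagcactc

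Of 26475 reads on the 9 rows of the Ccl21 group, the scaffold row of Ccl21a held 81.8%, and Gm10591 held 3863 reads. The chromosome 4 row of Ccl21a held 1.79%. The scaffold row shares its symbol with the chromosome 4 gene, and its own sequence was not analysed here. The Ccl21c rows of the group were not aligned either.

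**Figure D2:**
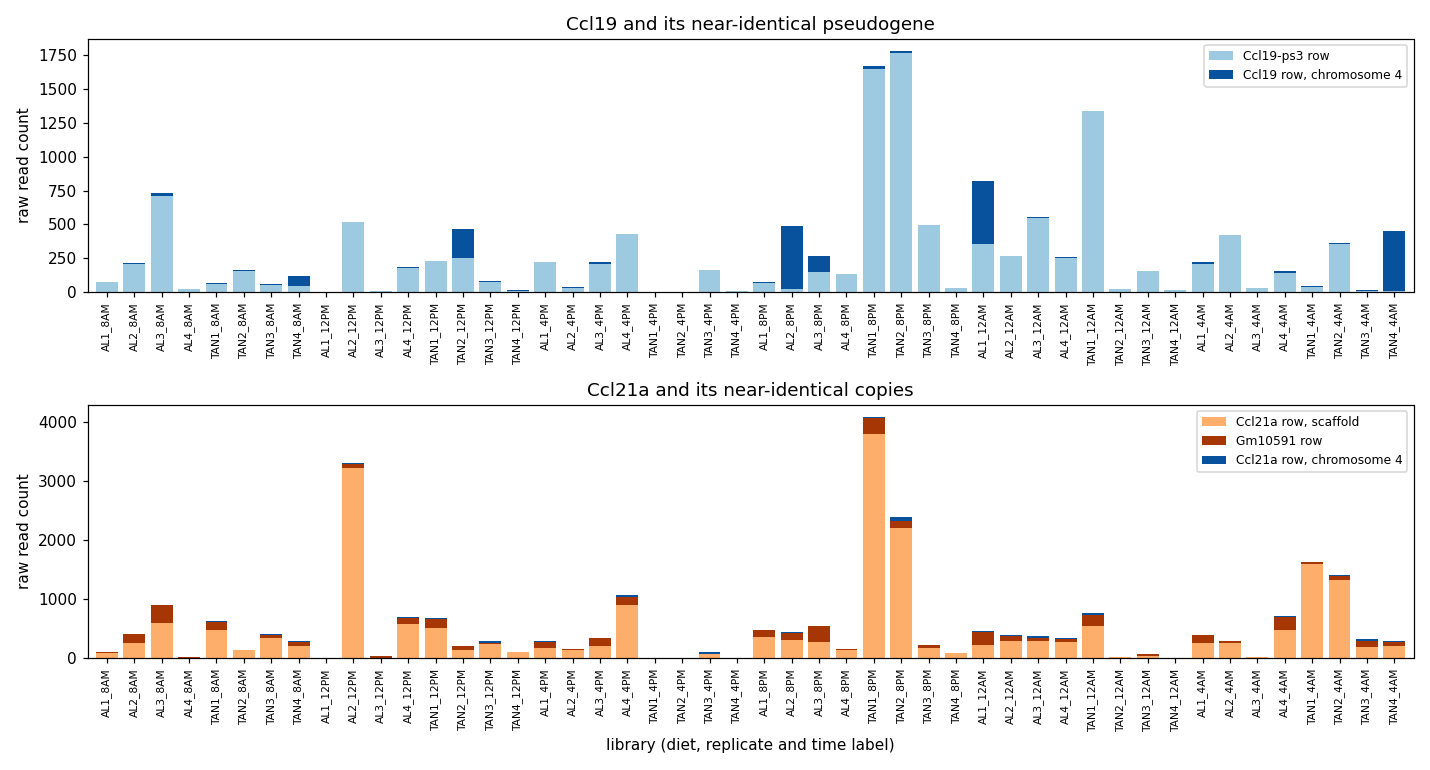
Raw read counts per library (stacked bars) on the Ccl19 and Ccl19-ps3 rows (top) and on the scaffold Ccl21a, Gm10591 and chromosome 4 Ccl21a rows (bottom), ordered by time label. Most reads lay outside the chromosome 4 rows, and the Ccl19 row was tall in 6 libraries (74 to 461 reads); TAN libraries 1 and 2 of 8PM had 1715 and 1833 reads over all 4 rows of the Ccl19 group.

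One of the questions of the design was whether TAN feeding changed expression at a given time. At 4PM, Chst4 and Cxcl13 were lower in TAN, and they were the 2 of 7 rows called there by the edgeR quasi-likelihood test (Benjamini-Hochberg adjusted p under 0.05 over 19977 genes and a log2 fold change beyond 1 in size). Of all genes tested at 4PM, 10.4% were called in either direction and 7.43% were called lower, and 2 of 7 rows are read against that share. The median log2 fold change of the 7 rows was -3.54, beside -0.09 over all genes tested.

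Cxcl13, the B cell attractant, stood at 91.4, 85.2, 124 and 160 CPM in ad-lib libraries 1 to 4 of 4PM and at 12.5, 6.16, 38.7 and 6.14 CPM in TAN libraries 1 to 4. The groups did not overlap, and TAN library 3 was the highest of its group. The means were 115 ± 34.4 CPM (SD, n = 4) and 15.9 ± 15.5 CPM (SD, n = 4), a log2 fold change of -2.86 (SE 0.77; edgeR adjusted p = 0.0174). The call was lost without TAN replicate 1 (edgeR adjusted p = 0.0600) or TAN replicate 2 (edgeR adjusted p = 0.0537), with log2 fold changes of -2.76 and -2.58.

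Chst4, the sulfotransferase of the venules, had 70, 35, 122 and 98 reads in the ad-lib libraries of 4PM and 0 reads in all 4 TAN libraries. Its ad-lib mean was 3.53 ± 1.29 CPM (SD, n = 4). With 3 counts set as the limit for a TAN library with 0 reads, it was at least 19.3-fold lower in TAN (edgeR adjusted p = 0.0103). The limit of 3 was a chosen setting, and a larger true level can still give 0 reads. Intervals and limits of this kind cover counting error only, and the error of the ad-lib mean was left out.

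Glycam1 had 952, 788, 809 and 941 reads in ad-lib and 0, 0, 280 and 10 reads in TAN at 4PM. The groups did not overlap, with 39.9 ± 9.85 CPM against 3.38 ± 6.39 CPM (SD, n = 4 each), and the log2 difference of -3.54 (SE 1.52) did not pass (edgeR adjusted p = 0.0980). TAN library 3 held nearly all of the TAN reads, and without TAN replicate 3 Glycam1 and the scaffold row of Ccl21a were called too (edgeR adjusted p = 0.0420 and 0.0475), which made 4 rows.

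The scaffold row of Ccl21a had 172, 135, 205 and 902 reads in ad-lib and 0, 0, 72 and 6 in TAN at 4PM. Its log2 difference was -3.93 (SE 1.53; edgeR adjusted p = 0.0695), and it was called by DESeq2 (adjusted p = 0.0221) and in an edgeR fit of 4PM alone (adjusted p = 0.0390). The sum of the 9 rows of the Ccl21 group gave -3.97 (SE 1.46; edgeR adjusted p = 0.0574). Madcam1 had 37, 32, 107 and 58 reads in ad-lib and 28, 0, 8 and 0 in TAN, groups that overlapped (log2 difference -2.27, SE 1.21, edgeR adjusted p = 0.184), and it was called by limma voom (-4.01, adjusted p = 0.0251). Ccl19 had 2, 8, 10 and 1 reads in ad-lib and 0, 0, 1 and 0 in TAN, and its 4 copies summed were at 9.77 ± 6.18 CPM in ad-lib and 2.03 ± 3.74 CPM in TAN (SD, n = 4 each; edgeR adjusted p = 0.257).

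No member row was called at 8AM, 12PM, 8PM, 12AM or 4AM by edgeR, where 0.015%, 0.0901%, 7.03%, 0.135% and 0% of all genes were called. At an unadjusted p under 0.05 (edgeR) the counts were 0, 1, 1, 2 and 1 of 7 rows. The share of all genes under that threshold was not counted, at these times or in the mean, so these counts have no background. DESeq2 called 2 rows at 12AM (Madcam1 and Ccl19), beside 301 of 19977 genes. Limma voom called none there, beside 38 genes. The Ccl19 reads of 12AM lay mostly in ad-lib library 1 (459 reads, at most 6 in any other library of 12AM). Its 4 copies summed gave -0.11 (SE 1.28; edgeR adjusted p = 0.978). In the mean over the 6 times, edgeR called 0 of 7 rows beside 1.97% of all genes, and 2 rows had an unadjusted p under 0.05. DESeq2 called 1 row in the mean (Chst4), beside 516 of 19977 genes, and limma voom called 0, beside 204.

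At 12AM Madcam1 had 48, 32, 124 and 36 reads in ad-lib and 6, 1, 4 and 0 in TAN. The groups did not overlap, as was so for 5.54% of all genes in that direction (at 4PM, where 4 of 7 rows did not overlap, for 17.8%). The log2 difference was -3.91 (SE 1.33), with an edgeR adjusted p of 0.152. Cxcl13 at 12AM lay between 128 and 158 CPM in ad-lib and spread from 8.30 to 183 CPM in TAN.

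At 8PM the TAN libraries spread widely in Glycam1 and the scaffold row of Ccl21a. Glycam1 was at 95.6, 117, 27.2 and 1.24 CPM in TAN libraries 1 to 4, around an ad-lib range of 19.6 to 48.4 CPM, and the scaffold row of Ccl21a was at 192, 88.4, 8.05 and 5.13 CPM against 5.65 to 14.9 CPM. TAN libraries 1 and 2 of 8PM stood apart from the rest of the series, with T cell genes above B cell genes by at least 1.48 on the log2 scale and the lowest Adipoq levels of all libraries (890 and 551 CPM). Without both of them the log2 difference of Glycam1 turned from 0.63 to -1.45 and that of the scaffold row of Ccl21a from 2.69 to -0.79, neither of them called by edgeR (adjusted p = 0.611 and 0.777). The part of these libraries' cell makeup in the values was not tested.

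An F test asked whether the TAN effect differed between times. Ccl19 was the 1 of 7 rows called (edgeR adjusted p = 0.0154), where 8.98% of all genes were called. Its fitted differences followed the single libraries named above, being positive at 12PM and 4AM (5.55 and 4.24) and negative at 8PM and 12AM (-3.79 and -7.16) on the log2 scale. The call was lost without TAN replicate 2, TAN replicate 3 or ad-lib replicate 3, and with the 4 copies summed the adjusted p was 0.530 (edgeR). Limma voom did not call Ccl19 either (adjusted p = 0.126).

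Within TAN, the 6 times differed for Chst4, Ccl19 and the scaffold row of Ccl21a (edgeR adjusted p = 0.0381, 0.0159 and 0.0335), 3 of 7 rows beside 23% of all genes. Without TAN replicate 1 or TAN replicate 2 none of the 3 passed. With limma voom Ccl19 and the scaffold row of Ccl21a did not pass (adjusted p = 0.139 and 0.0526). Within ad-lib no row was called, beside 0.0551% of all genes. There 1 row (Ccl19) had an unadjusted p under 0.05, a threshold at which the share of all genes was not counted. With limma voom, none of the 7 rows was called within ad-lib either.

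The members were then set beside lymphocyte genes, measured as the mean log2 CPM of 12 B cell genes (among them Ms4a1, Cd79a and Cd22) and of 12 T cell genes (among them Cd3e, Cd4 and Cd8a). The libraries fell into 2 clusters by the B cell level, 10 at or below 0.81 and 38 at or above 4.06, a gap of 3.25 on the log2 scale where the next largest gap was 0.93. The T cell level split the same libraries, with 1.16 as the highest below the gap and 2.83 as the lowest above it. For that reason no correlation of a member with these lists over all 48 libraries is given.

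Of the 10 libraries below the gap, 6 were TAN and 4 ad-lib. They were 3 of the 4 TAN libraries of 4PM, 2 TAN libraries of 12AM, 1 TAN library of 8PM, 2 ad-lib libraries of 12PM and 1 ad-lib library each of 8AM and 4AM. None of the 4 ad-lib libraries of 4PM was among them.

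In these 10 libraries Glycam1 had 0 to 22 reads, while it had 185 to 2923 reads in the 38 others. Chst4 had 0 to 9 reads there and 0 to 162 in the others. It was at or under 3 reads in 9 of the 10 and in 2 of the 38. Madcam1 had 0 to 28 and 0 to 124 reads, at or under 3 in 8 of the 10 and in 1 of the 38. Ccl19 and the chromosome 4 row of Ccl21a had at most 1 read in any of the 10. In the 38 others they had 0 to 461 and 0 to 75 reads, at or under 3 in 11 and 9 libraries. The scaffold row of Ccl21a overlapped across the gap too, with 0 to 91 reads in the 10 libraries and 43 to 3796 in the others. How many of all genes separate at the gap was not counted.

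Cxcl13 differed from the other members in that it remained detected in all 10 libraries, with 110 to 844 reads (6.14 to 37.3 CPM). In the 38 others it had 836 to 7528 reads (38.7 to 285 CPM). Within the 10 libraries a relation of its level to the B cell genes was not detected (Pearson r = -0.16, permutation p = 0.656; Spearman rho = -0.09, permutation p = 0.812; n = 10).

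**Figure D3:**
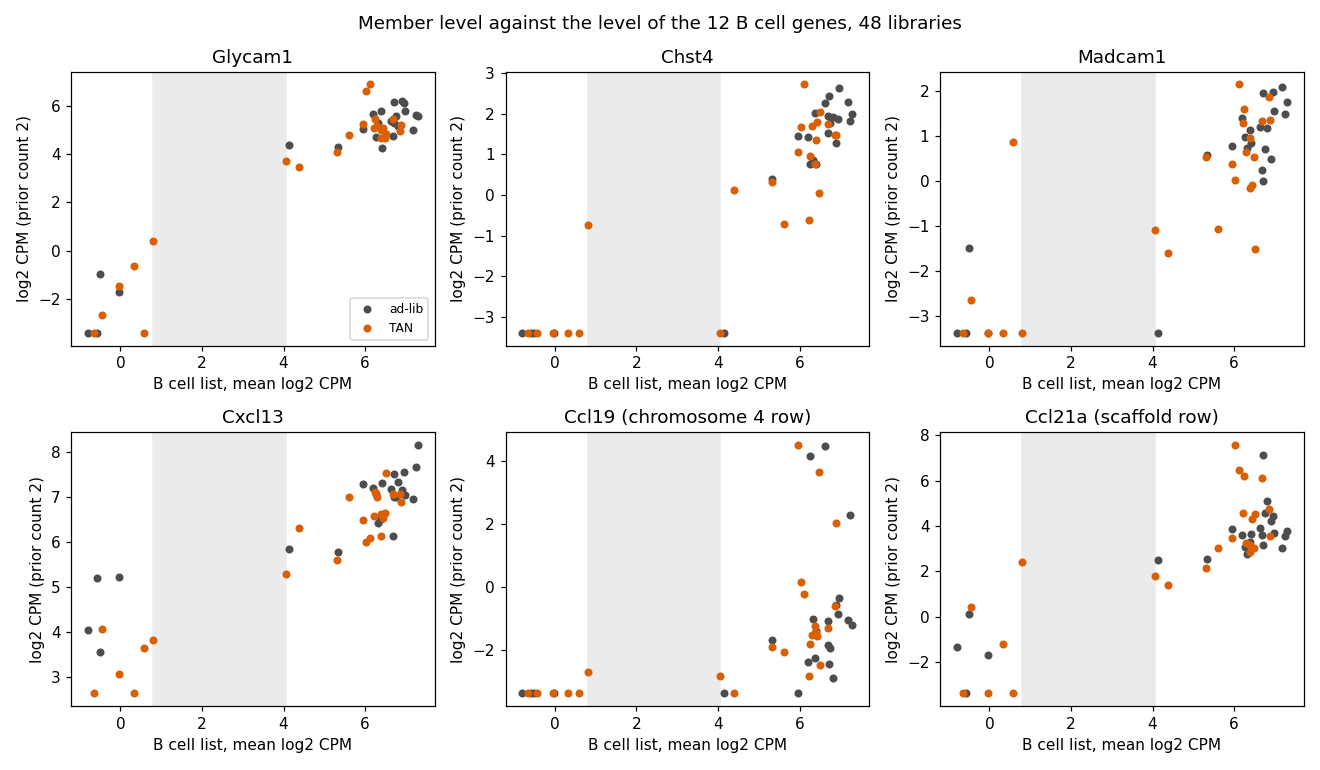
Log2 CPM of 6 tested rows (vertical axis) against the mean log2 CPM of the 12 B cell genes (horizontal axis) in 48 libraries coloured by diet. The grey band is the gap from 0.81 to 4.06 that holds no library; 10 libraries lie to its left, where Glycam1 had at most 22 reads and Cxcl13 at least 110.

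Within the 38 libraries above the gap, 18 relations were tested, of 7 rows and the 2 sums of copies, each against B and T cell genes. Of these, 14 had a Benjamini-Hochberg adjusted permutation p under 0.05 by Pearson r, all of them positive. The 18 are not separate results, since the sums hold reads of their rows and each row is set against both lists. How many of all tested genes relate to these lists in the 38 libraries was not tested. The 2 levels of each relation were measured in the same library and scaled by the same depth, and nothing in the labels says more of how libraries of a group are related than their replicate numbers. The smallest p that 100000 resamples can give is 1e-05.

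Glycam1 followed the T cell genes with r = 0.79 and rho = 0.66 (permutation p = 1e-05 and 2e-05, adjusted 3e-05 and 7.2e-05), and the B cell genes with r = 0.59 and rho = 0.45 (permutation p = 0.00011 and 0.00529, adjusted 0.00022 and 0.00866). Without the 2 libraries farthest from the median of the list, r was 0.79 and 0.50. In TAN libraries alone (n = 18) r with the B cell genes fell from 0.57 to 0.09 without the 2 farthest libraries, so that it rested on them. In ad-lib libraries alone (n = 20) it fell from 0.59 to 0.34, while r with the T cell genes went from 0.64 to 0.58. Without TAN libraries 1 and 2 of 8PM, r was 0.71 with the T cell genes and 0.73 with the B cell genes.

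Cxcl13 followed the B cell genes with r = 0.72 and rho = 0.63 (permutation p = 1e-05 for both, adjusted 3e-05 and 6e-05), and r was 0.62 without the 2 farthest libraries. With the T cell genes r was 0.39 and rho 0.38 (permutation p = 0.0160 and 0.0187, adjusted 0.0206 and 0.0225), and r was 0.46 without the 2 farthest. Without TAN libraries 1 and 2 of 8PM the T cell relation rose to r = 0.68, near that with the B cell genes (0.73). In TAN libraries alone it did not pass (r = 0.26, adjusted permutation p = 0.323, n = 18). In ad-lib libraries alone (n = 20) r was 0.71 with the B cell genes and 0.58 with the T cell genes. Without the 2 farthest libraries these fell to 0.41 and 0.21. Whether a member followed one list more closely than the other was not tested.

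Chst4 was related to the B cell genes with r = 0.81 and rho = 0.65 and to the T cell genes with r = 0.76 and rho = 0.71 (permutation p = 1e-05 or 2e-05, adjusted at most 7.2e-05). Madcam1 was related to the B cell genes with r = 0.72 and rho = 0.52 (permutation p = 2e-05 and 0.00104, adjusted 5.14e-05 and 0.00267) and to the T cell genes with r = 0.62 and rho = 0.46 (permutation p = 9e-05 and 0.00388, adjusted 0.000202 and 0.00776). Leaving out the 2 farthest libraries lowered r to 0.60 and 0.65 for Chst4 and to 0.57 and 0.41 for Madcam1. In TAN libraries alone the relation of Madcam1 to the T cell genes did not pass (r = 0.48, adjusted permutation p = 0.0630). In ad-lib libraries alone (n = 20) its r was 0.81 with the B cell genes and 0.82 with the T cell genes. Without the 2 farthest libraries these fell to 0.43 and 0.28. For Chst4 they fell from 0.88 and 0.90 to 0.55 and 0.52.

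The sum of the Ccl21 copies followed the T cell genes with r = 0.73 and rho = 0.67 (permutation p = 1e-05 for both, adjusted 3e-05 and 6e-05), and r was 0.71 without the 2 farthest libraries. Its relation to the B cell genes was r = 0.51 and rho = 0.45 (permutation p = 0.00115 and 0.0051, adjusted 0.00188 and 0.00866). In ad-lib libraries alone (n = 20) r was 0.57 with the T cell genes and 0.56 with the B cell genes. Without the 2 farthest libraries these fell to 0.35 and 0.25. The scaffold row of Ccl21a did not pass in ad-lib by r with the B or T cell genes (adjusted permutation p = 0.0952 and 0.0915). The sum of the Ccl19 copies had r = 0.45 with the T cell genes (adjusted permutation p = 0.00655; rho = 0.33, adjusted permutation p = 0.0504), which fell to 0.28 without TAN libraries 1 and 2 of 8PM (adjusted permutation p = 0.108), and r = 0.11 with the B cell genes (adjusted permutation p = 0.515). The Ccl19 row alone did not pass by r with either list (r = 0.32 and 0.30, adjusted permutation p = 0.0533 and 0.0719), while it passed by rho (0.39 and 0.47, adjusted permutation p = 0.0215 and 0.00682).

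Deviations from the group means gave r of 0.62 and 0.77 for Glycam1 and 0.70 and 0.41 for Cxcl13 with the B and T cell genes, so that the relations were also seen among libraries of one diet and time. Over pairs of members, Glycam1 and the scaffold row of Ccl21a had r = 0.74 and Glycam1 and Chst4 r = 0.64, while Cxcl13 and Glycam1 had r = 0.39 (n = 38, given as descriptions).

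Lymphocyte genes moved with the diet difference at 4PM. Of 12 B cell genes 7 were called lower in TAN, with a median log2 fold change of -4.25. Cr2, the complement receptor of follicular B cells, had the largest fold change of the 12 (98.1 to 191 CPM in the 4 ad-lib and 1.03 to 11.8 CPM in the 4 TAN libraries; log2 fold change -4.98, SE 1.44, edgeR adjusted p = 0.0226). Of 12 T cell genes 2 were called lower, Cd4 and Cd3g, with a median of -3.30.

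With the mean level of the B and T cell genes as a covariate in the edgeR model, no member row was called at 4PM. Chst4, with 0 reads in every TAN library, had a fitted value of -5.52 (SE 1.47; edgeR adjusted p = 0.200), which depends on the prior count. Cxcl13 moved from -2.86 to -0.97 (SE 0.38; edgeR adjusted p = 0.336), Glycam1 from -3.54 to 0.04, Madcam1 from -2.27 to 1.61 and the scaffold row of Ccl21a from -3.93 to -0.91. In the same fit no gene of the 19977 was called at 4PM. At 8PM the scaffold row of Ccl21a was called with the covariate, at 2.92 (SE 0.81; edgeR adjusted p = 0.0107), 1 of 7 rows where 2356 of 19977 genes were called in that fit. TAN libraries 1 and 2 of 8PM held 3796 and 2205 reads of this row, and TAN libraries 3 and 4 held 170 and 91. In libraries 1 and 2 T cell genes stood above B cell genes, which a mean of both lists does not describe. The covariate fit was not run without them, and without them the fit with no covariate gave -0.79.

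**Figure D4:**
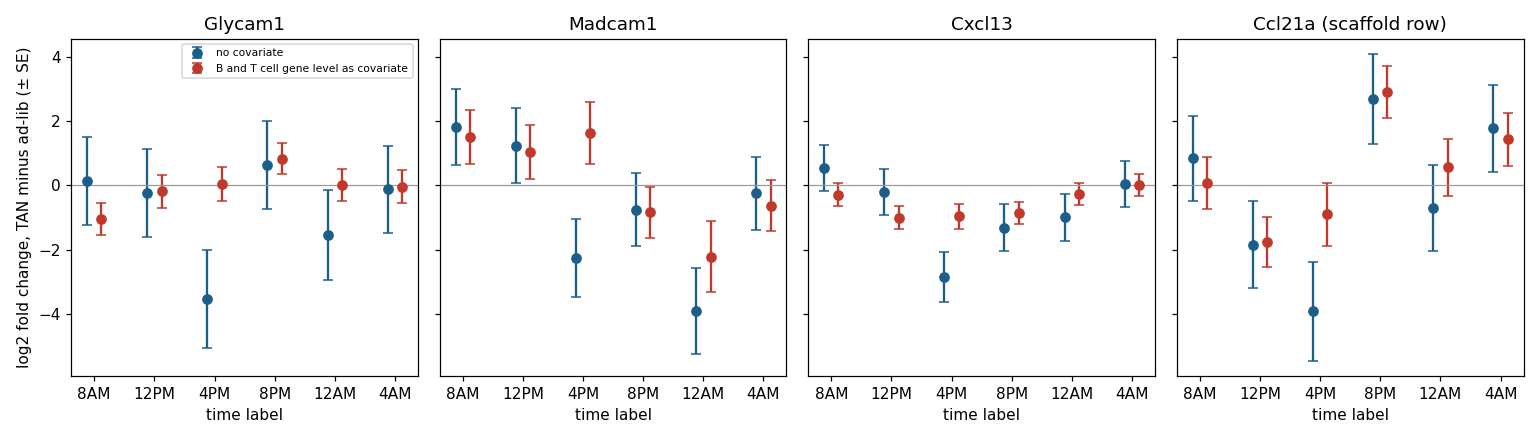
Log2 fold change of TAN minus ad-lib (points) at each time label for 4 rows, without a covariate (blue) and with the B and T cell gene level as a covariate (red). Bars are ± SE, derived from the F statistic of the edgeR fit of all 48 libraries, 4 per group. At 4PM Cxcl13 moved from -2.86 to -0.97 and Glycam1 from -3.54 to 0.04. The scaffold row of Ccl21a at 8PM was 2.69 and 2.92, with TAN libraries 1 and 2 of 8PM in both fits.

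Receptors of the members were measured in the same libraries. At 4PM Itga4 (a chain of the integrin that binds MAdCAM-1) and Ackr4 (a scavenging receptor for CCL19 and CCL21) were called lower in TAN. Itga4 was at 146 ± 33.0 CPM in ad-lib and 9.01 ± 2.39 CPM in TAN (SD, n = 4 each; edgeR adjusted p = 0.00933). Ackr4 was at 4.33 ± 1.08 and 0.832 ± 0.350 CPM (edgeR adjusted p = 0.0339). Ccr7, Cxcr5 and Itgb7 had log2 differences of -3.31, -3.86 and -2.74 that did not pass (edgeR adjusted p = 0.107, 0.0584 and 0.0613). Itga4 was also called in the mean over the 6 times (-1.19, SE 0.34, edgeR adjusted p = 0.0332).

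Among 8 other genes of high endothelial venules, 1 was called lower at 4PM and 1 higher. Gcnt1, a glycosyltransferase that branches O-glycans, was at 44.6 ± 9.51 CPM in ad-lib and 8.02 ± 8.65 CPM in TAN, and Parm1, a mucin-like membrane protein, at 24.2 ± 3.81 and 77.6 ± 45.8 CPM (SD, n = 4 each; edgeR adjusted p = 0.0293 and 0.0145). Parm1 was called higher in TAN at 12PM as well and in the mean over the 6 times (1.24, SE 0.18, edgeR adjusted p = 1.25e-05). The median log2 fold change of these 8 genes at 4PM was -0.28.

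Among 10 other reticular stroma genes, 3 were called lower at 4PM and 1 higher, with a median of -1.67. Grem1, an antagonist of bone morphogenetic proteins, was at 11.1 ± 2.85 CPM in ad-lib and 0.574 ± 1.04 CPM in TAN (edgeR adjusted p = 0.0435), and Ltbr, the lymphotoxin beta receptor, rose from 28.1 ± 7.39 to 59.8 ± 26.3 CPM (SD, n = 4 each; edgeR adjusted p = 0.0291). Of 9 lymphotoxin pathway genes 2 were called lower, Tnfsf14 (the ligand LIGHT) and Tnfrsf11a (the receptor RANK), with log2 fold changes of -3.58 and -1.45 and a median of -1.54 over the 9.

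Other cell markers differed at 4PM too. The summed level of 5 lymphatic endothelial genes had a median of 98.9 CPM in ad-lib (highest 104) and lay between 9.64 and 51.2 CPM in TAN, below every ad-lib library, and 1 of the 5 (Lyve1) was called lower. The 5 adipocyte genes summed to 8672 to 13993 CPM in ad-lib and 20583 to 43545 CPM in TAN, with 1 of the 5 (Fabp4) called higher. The 5 blood endothelial genes overlapped (502 to 616 and 280 to 534 CPM) and 0 of 5 were called by edgeR. Of 9 mammary epithelial genes 4 passed the filter and Epcam was called lower. The list summed to a median of only 3.04 CPM over all libraries. Its keratin genes Krt5 and Krt14 had no reads in 44 and 47 libraries, and the milk gene Wap had none in any library. The part of these cells in the members' values was not tested.

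By Pearson r of log2 CPM over the 48 libraries, the tested genes most like Glycam1 included Gpr171, Cd79a, Ly6d and Ccr7, with r between 0.72 and 0.84 in the 38 libraries above the gap. The ranking spans both clusters and can favour any gene that is low in the libraries below the gap. Cd79a is also one of the B cell genes that set the gap. Those most like Cxcl13 were Rnase6, Serpinb1a, Iglv3, Stap1 and Cd24a, those most like Chst4 were Tnfaip3, Abcg3, Ly9, Afp and Osm, and those most like Madcam1 were Myb, Aim2, Chst3, Plcg2 and Btk. The genes most like the scaffold row of Ccl21a included Trbv13-2, Cd69, Crtam and Txk (r of 0.57 to 0.69 in the 38 libraries).

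Promoters were read from RefSeq (GRCm38.p6, 250 bases before to 50 bases after the start of each gene), and all 6 members had an entry. The kappaB consensus, searched on both strands, was in 5.805% of 32851 promoters and in 1 of the 6, that of Madcam1, which held it 2 times on the strand opposite to the gene. It is printed because it was the one member with a match, 83 and 70 bases before the start, with both matches in capitals:
Madcam1, chr10:79664473-79664502, plus strand: ctgGGAAAGCCCCctgGGAAAGTCCCacag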

How the data were processed

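RNA of inguinal fat was sequenced after poly-A selection. The labels describe directional as well as non-directional libraries, so strand use in counting is not known here. The authors deposited raw read counts per gene, which were the values used, and the submitters' processing notes name TopHat 1.3.3, DESeq2 1.20.0, edgeR and limma, and the builds mm9, mm10 and GRCm38 without a role. The coordinates in the count table are those of GRCm38. A deposited FPKM table averaged over groups was not used.

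Groups were taken from the labels (diet and time, 4 replicates each). The methods describe group-housed littermates and do not tie each library to an animal or cage, so p-values measure the spread between these samples. Counts were fitted with edgeR 4.0.16 (R 4.3.3; TMM factors, robust quasi-likelihood test, all 12 groups in 1 fit) after filtering with a minimum count of 10, which left 19977 of 54532 genes. Calls needed a log2 fold change larger than 1 in size together with a Benjamini-Hochberg adjusted p below 0.05. F tests over times used the adjusted p alone. The SE of an edgeR log2 fold change was its absolute value divided by the square root of the F statistic of its test. Log2 CPM used a prior count of 2. No row was without a gene name.

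Relations were tested with 100000 permutations over a family of 18 (a smaller family had been planned, and the sums of copies and the second Ccl21a row were added). Alternatives were limma 3.58.1 (voom), DESeq2 1.42.0, other filters and scalings, a replicate block, a lymphocyte covariate and leaving out each replicate. Summing copies, leaving out TAN libraries 1 and 2 of 8PM, and splitting libraries at the B cell gap were chosen after seeing the data. The members and gene lists were chosen with earlier results of these data known. The rule for genes most alike took the 5 highest Pearson correlations per tested row, and genes named in lists were those called with the largest changes. Some genes that these rules pick are not reported here. The edgeR script was tested on simulated data. Total counts were 15636378 to 29913310 per library. Libraries of a group could differ widely at such totals, as for Glycam1 in TAN at 4PM (3.38 ± 6.39 CPM, SD, n = 4).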

Additional observations from a re-analysis of the deposited data

Results flagged for a closer look

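In 8 of 83 groups of 4 libraries, 1 library lay far from the other 3 in the level of a member. A chance rate of about 1 in 20 cannot be set against this count, since the same library was flagged for several members. Where the other 3 libraries all had no reads, as in some of the 8 groups, any read in the remaining library set the flag. Ad-lib library 3 of 4AM, one of the 10 libraries low in B and T cell genes, accounted for 4 of the 8 groups. Its log2 CPM was -0.97 for Glycam1 (8 reads against 1074 to 1528 in the other 3), -1.49 for Madcam1 (5 against 54 to 85), 3.56 for Cxcl13 (225 against 2672 to 4101) and -2.76 for the chromosome 4 row of Ccl21a (1 against 7 to 9).

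In the other 4, the library lay above the rest of its group in a row with near-identical copies, in part at counts near the floor. Ccl19 in TAN library 4 of 4AM was at 4.54 on the log2 scale (442 reads against 4 to 6). TAN library 1 of 12AM stood at -2.47 for Ccl19 (2 reads against 0) and at -0.015 for the chromosome 4 row of Ccl21a (21 reads against 0), and TAN library 3 of 4PM at -2.82 for Ccl19 (1 read against 0).

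The TAN effect on Ccl19 differed between time points (edgeR F test, adjusted p = 0.0154), and did not pass with the 4 copies summed (edgeR adjusted p = 0.530).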

How the results depend on the processing

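At 4PM 2 member rows were called. The number was 1 with at least 10 counts in every library (1 row tested), 0 with the lymphocyte covariate, 3 with voom, DESeq2 or a separate fit of 4PM, and 1 to 4 when leaving out 1 replicate. Calls at 8PM (none) became 1 with the covariate, at 12AM (none) 2 with DESeq2, and in the mean (none) 1 with DESeq2 and 1 without TAN libraries 1 and 2 of 8PM. For the TAN effect between times (1) there were 0 with at least 10 counts, 0 with copies summed, 3 without those libraries, 3 with voom and 0 to 1 leaving out a replicate. The 3 of voom were Cxcl13, Chst4 and Madcam1, without the Ccl19 row called in the main fit. Within TAN (3) there was 1 with at least 10 counts, 1 with the replicate block and 0 to 4 leaving out a replicate. Voom called 3 within TAN too, with Cxcl13 and Madcam1 in place of Ccl19 and the scaffold row of Ccl21a. Of 24 correlations of same-numbered ad-lib and TAN libraries of a time, 10 were above 0.1 (median -0.01, from -0.59 to 0.84). Differently numbered libraries were not compared, so these values cannot tell whether the replicate numbers pair samples. Under the replicate block Cxcl13 at 4AM turned to -0.10.

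With the covariate the log2 difference turned for Cxcl13 (-0.29) and Glycam1 (-1.05) at 8AM, for Glycam1 (0.039), Madcam1 (1.61) and chromosome 4 Ccl21a (1.88) at 4PM, for Chst4 at 8PM (0.63), for Glycam1 (0.0048), scaffold Ccl21a (0.56), Chst4 (0.11) and Ccl21a (0.026) at 12AM, and in the mean for scaffold Ccl21a (0.38), Ccl19 (0.21) and Madcam1 (0.074). Without TAN libraries 1 and 2 of 8PM it turned at 8PM for Glycam1 (-1.45), scaffold Ccl21a (-0.79) and Ccl21a (-2.36), and in the mean for Ccl21a (-0.0076). With voom it turned at 12PM for Cxcl13 (0.29), Glycam1 (4.23), scaffold Ccl21a (1.96) and Chst4 (1.68), at 8PM for Glycam1 (-0.44), and at 4AM for Glycam1 (1.14), Chst4 (1.11) and Madcam1 (0.14). The cause was not tested.

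Leaving out 1 replicate gave ranges across 0 for Cxcl13 at 4AM (-0.34 to 0.34) and 12PM (-0.54 to 0.36), Glycam1 at 8AM (-0.27 to 1.07), 12PM (-0.68 to 0.66) and 4AM (-0.54 to 0.18), Madcam1 at 4AM (-0.61 to 0.090), Chst4 at 8PM (-1.25 to 0.046) and 4AM (-0.67 to 0.31), Ccl19 at 4AM (-0.31 to 4.95) and in the mean (-1.26 to 0.28), Ccl21a at 8PM (-0.32 to 2.97) and in the mean (-0.20 to 1.04), and scaffold Ccl21a at 12PM (-2.52 to 0.47) and in the mean (-0.96 to 0.23).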
